A study of Homo sapiens with 22 samples.

Results

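The replication-dependent histone genes of chromosome 6 were taken as the protein-coding genes between 25.9 and 28 Mb (GRCh38) whose symbols begin with H1-, H2AC, H2BC, H3C or H4C. The rule gave 53 genes of the 19974 protein-coding genes on chromosomes that carried peaks, and 19 other protein-coding genes lay in the same window. By class there were 6 H1, 11 H2A, 14 H2B, 10 H3 and 12 H4 genes. They fell into 3 clusters separated by more than 200 kb: 32 genes from H1-1 to H4C8 over 268.5 kb, 5 genes from H2BC11 to H2AC12 over 15.2 kb, and 16 genes from H2BC13 to H2BC17 over 86.4 kb. All symbols matched the rule by name and position. The rule uses no measured value, although the members were chosen with earlier results of these data known. H2AC1 and H2BC1 lie on the same chromosome just outside the window and had no peak summit within 1 kb in any list.

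The data were peak lists from chromatin immunoprecipitation sequencing of asynchronous hTERT RPE-1 cells, a human line derived from retinal pigment epithelium and immortalised with telomerase. Wild-type cells served for CTCF and WAPL. The remaining proteins came from 2 edited clones whose NIPBL is fused to the FKBP12(F36V) degron, through which the small molecule dTAGV-1 directs its degradation. The genotype of clone NIPBL-A2 was mCherry-P2A-FKBP12(F36V)-NIPBL and that of clone NIPBL-D7 mGreenLantern-P2A-FKBP12(F36V)-NIPBL, here called clones A2 and D7. Both clones gave RAD21 libraries after 24 h of DMSO, the solvent, and after dTAGV-1 for 4 h and for 24 h. PDS5A came from clone D7 after 24 h of DMSO. STAG1 and STAG2 came from clone D7 and HA from clone A2, with no treatment in the labels, although peak names inside the STAG1 and STAG2 lists read DMSO. HA is a peptide epitope recognised by its antibody. The labels do not say which protein carried it, and peak names inside that list read HA-NIPBL. About 10% of NIH/3T3 (mouse) chromatin was added to the RAD21 and PDS5A samples for scaling, and no scaling factor was taken from it here. Each degron line is a single clone, the clones were never treated as replicates of each other, and every protein and condition had 1 library. No difference below therefore has a replicate check or a p-value, and the ranges in brackets are 95% Wilson intervals that cover counting error only.

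Replication-dependent histone genes supply the core and linker histones that package newly copied DNA in S phase. They are typically short and without introns, and yield mRNAs that end in a stem-loop instead of a poly(A) tail; in the nucleus their clusters gather the factors of the histone locus body. Cohesin is a ring complex that extrudes loops of chromatin: RAD21 is its kleisin, STAG1 and STAG2 are alternative accessory subunits, NIPBL supports loading and extrusion, PDS5A and WAPL bind the ring and regulate its stability and release, and CTCF retains it at directional sites.

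Promoter sequences are shown because PDS5A summits lay within 500 bases of the gene start at 29 of 30 genes with an annotated start. The median gene length was 487 bp, so a summit inside a gene is mostly near its start. The PDS5A summits of the genes shown lay outside the printed stretches. Each is the 150 bases before the start in the direction of transcription, from RefSeq (GRCh38.p14), with capitals marking the TATA box TATAAA, the CCAAT box and the octamer ATTTGCAT on either strand, and adjoining matches run together. H3C2 had the highest PDS5A fold and H4C2 the highest CTCF fold of the 53 genes; the others, chosen after their values were seen, had the highest PDS5A fold of their class among genes with a promoter in the table (for H4, H4C4). H2AC11 and H2BC11 are transcribed away from each other, so their stretches overlap on opposite strands.
H1-2: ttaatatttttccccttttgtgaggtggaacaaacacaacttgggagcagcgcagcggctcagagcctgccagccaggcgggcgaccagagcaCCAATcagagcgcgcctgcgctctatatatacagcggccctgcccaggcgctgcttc
H2AC11: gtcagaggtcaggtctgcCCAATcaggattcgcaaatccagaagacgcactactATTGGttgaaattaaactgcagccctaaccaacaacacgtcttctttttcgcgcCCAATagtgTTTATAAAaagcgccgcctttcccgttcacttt
H2BC11: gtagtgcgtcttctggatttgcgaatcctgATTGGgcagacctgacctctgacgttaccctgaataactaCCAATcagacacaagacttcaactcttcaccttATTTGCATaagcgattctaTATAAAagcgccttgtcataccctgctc
H3C2: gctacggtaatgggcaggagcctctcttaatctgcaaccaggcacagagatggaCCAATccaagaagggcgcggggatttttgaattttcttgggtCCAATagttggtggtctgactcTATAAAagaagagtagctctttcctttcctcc
H4C4: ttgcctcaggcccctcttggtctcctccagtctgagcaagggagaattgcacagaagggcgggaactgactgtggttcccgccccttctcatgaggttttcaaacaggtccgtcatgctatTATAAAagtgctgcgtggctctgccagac
H4C2: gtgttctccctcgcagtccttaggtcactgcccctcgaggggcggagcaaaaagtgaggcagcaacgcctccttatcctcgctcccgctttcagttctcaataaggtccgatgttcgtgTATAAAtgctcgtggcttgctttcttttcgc
Positions are chr6:26056471-26056620 for H1-2, chr6:27132893-27133042 for H2AC11, chr6:27132796-27132945 for H2BC11, chr6:26032100-26032249 for H3C2, chr6:26189113-26189262 for H4C4 and chr6:26027284-26027433 for H4C2. H2AC11 reads on the plus strand and the other 5 on the minus strand.

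Promoters were present for 48 of the 53 genes, and the 250 bases before the start were searched on both strands. TATAAA, the TATA box, occurred in 31 of 48 (64.6%), against 11.1% of 27305 promoters, the first listed of each gene. In the 26 promoters with it on the gene strand, its first base lay at a median of 31 bases before the start. The remaining histone promoters with TATAAA had it on the opposite strand only. CCAAT occurred in 41 of 48 (85.4%), against 33.0% of the 27305. All 7 histone promoters without it were of H4 genes, of which 3 of 10 had it. The octamer ATTTGCAT occurred in 20 of 48 (41.7%), against 1.66%; it was found at 8 of 10 H2A, 11 of 14 H2B and 1 of 8 H3 promoters and at 0 of 6 H1 and 0 of 10 H4 promoters. The searched stretches of divergent H2A and H2B neighbours can overlap, so 1 match can count for both genes. The octamer printed for H2BC11, for example, also lies in the searched stretch of H2AC11. H3C4 and H2AC7 have the same annotated start and therefore the same promoter. The class counts are thus not independent. A match is a run of letters and was not tied to binding of any factor.

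Depth is given as the lowest background pileup, the number of fragments over a base that each list's own fold and p-values imply. It ran from 1.77 for STAG1 to 4.05 for RAD21 in clone D7 at 4 h, with 13.4 for CTCF, and could not be recovered for HA. RAD21 in clone D7 in DMSO and PDS5A, from the same clone and treatment, stood at 3.00 and 2.76. RAD21 in clone A2 in DMSO, at 1.87, was the shallowest of the 6 RAD21 libraries. In the window the lists held 66 peaks for CTCF, 28 to 59 for STAG1, STAG2 and PDS5A, 29 to 43 for RAD21, 3 for WAPL and 0 for HA, whose list held 230 peaks in all. A fold below is the authors' enrichment of a summit over its local background and is compared only within its own list.

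PDS5A was the protein most often called at the histone genes. A PDS5A summit lay within 1 kb of 33 of the 53 genes, or 62.3% (48.8 to 74.1), against 55.9% of all protein-coding genes. Most of the histone genes are short, with a median annotated length of 487 bp, and longer genes offer more bases to a summit. The 5 annotated at over 1 kb were H2BC4, H2BC5, H2BC12, H3C4 and H3C6, of which H2BC5 was the longest, at 13229 bp. Among the 524 protein-coding genes of at most 1 kb, 13.7% had a PDS5A summit, while 29 of the 48 histone genes of at most 1 kb did, or 60.4%. Among the 6922 no longer than H2BC5, 37.5% did. The 48 histone genes of at most 1 kb give 29 of the 72 genes of that length with a PDS5A summit. Both comparison sets were limited by length only and include the histone genes, as does the set of all protein-coding genes. Gene activity was not measured. With summits counted near either gene end in place of the whole gene, the share was 62.3% of the histone genes and 36.2% of all genes. The 33 genes shared 24 distinct peaks, because neighbouring H2A and H2B genes often lay under the same peak.

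**Figure D1:**
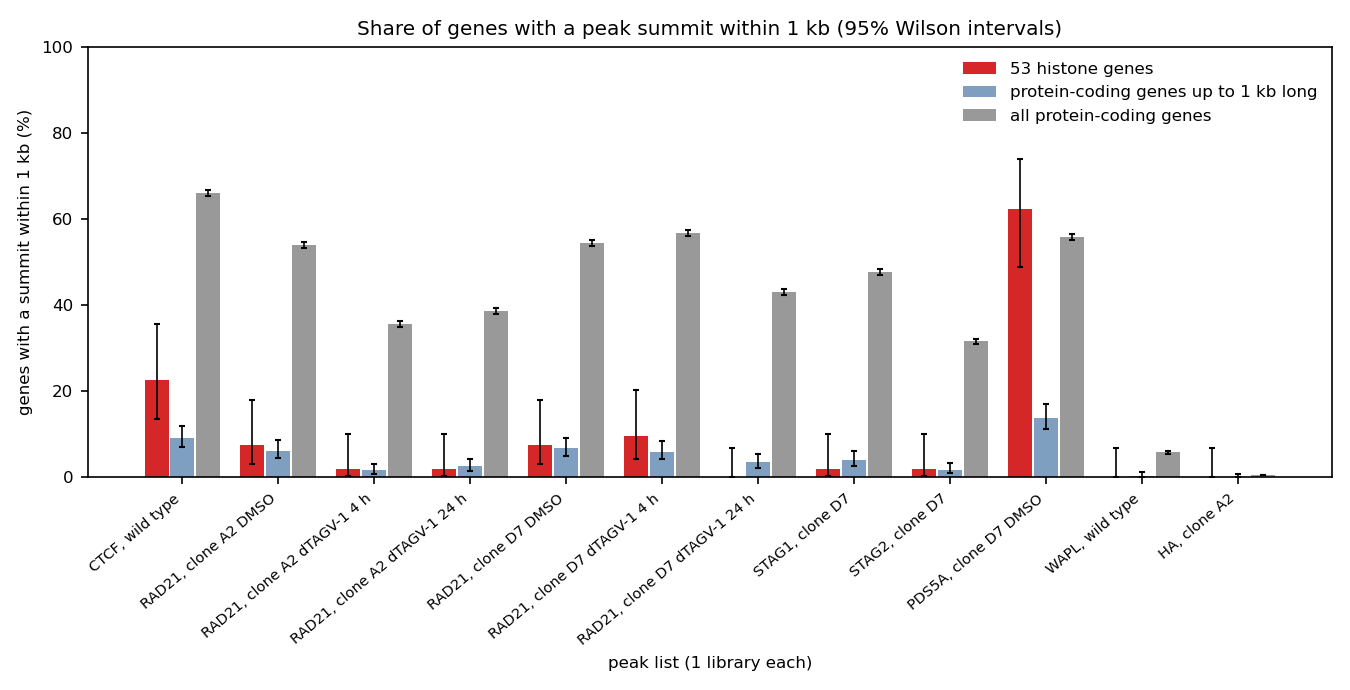
Percent of genes with a peak summit within 1 kb (y axis) in each of the 12 peak lists (x axis), for the 53 histone genes (red), protein-coding genes up to 1 kb long (blue) and all protein-coding genes (grey). The blue and grey sets include histone genes. Bars are shares and whiskers 95% Wilson intervals; the histone genes stand above the short genes for PDS5A (62.3% against 13.7%) and CTCF (22.6% against 9.16%), while the whiskers of both sets overlap in the other 10 lists.

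All 5 classes had PDS5A summits. They were at 9 of 11 H2A, 9 of 14 H2B, 5 of 10 H3, 7 of 12 H4 and 3 of 6 H1 genes, and at 18 of 32, 4 of 5 and 11 of 16 genes of the 3 clusters in chromosome order. Among the linker histones, H1-2 had a fold of 11.01, H1-4 of 5.20 and H1-5 of 4.40, whereas H1-1, H1-3 and the testis linker histone H1-6 had none. H3C2 stood highest of all 53 genes, with a fold of 11.8 from a pileup of 78 over a background of 5.68, followed by H3C3 with a fold of 11.2 and a pileup of 59. Of the H4 genes, most of which encode the same protein, H4C3 had a fold of 8.99, H4C4 of 8.32 and H4C2 of 7.51. Of the H2A and H2B genes, H2AC11 and H2BC11 shared the highest peak, with a fold of 9.70, and H2AC6 and H2BC4 shared one with a fold of 7.45. Except H3C2 and H4C2, these genes were named after their values were seen.

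These peaks were moderate within their list. The 24 PDS5A peaks at histone genes had folds of 2.90 to 11.8 with a median of 6.11, against a median of 6.89 over all 28887 PDS5A peaks. The 28 other PDS5A peaks of the window had a median fold of 9.48 and reached 80.6. Local background differed between these groups: where it could be recovered, its median was 6.12 at the 24 peaks of histone genes and 4.37 at 27 of the other 28. Median pileups were 45.5 and 50.0. With −log10 q required to be 10 or more, PDS5A was called at 25 of the 33 genes.

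**Figure D2:**
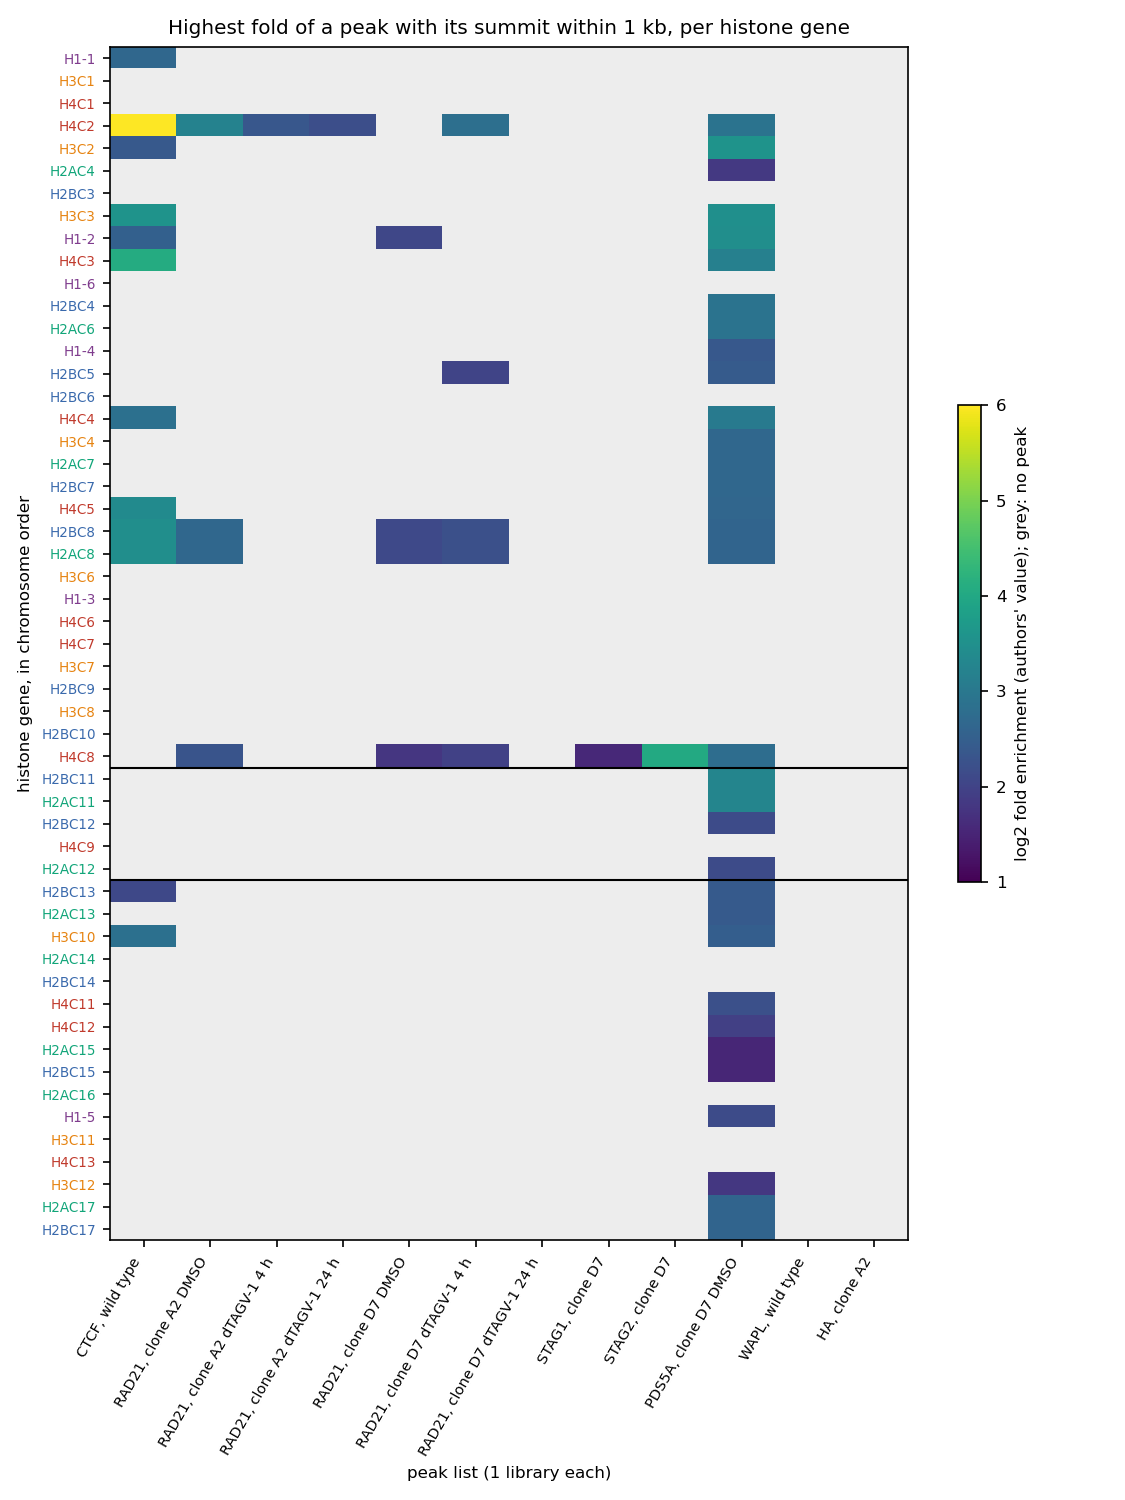
Highest fold of a peak with its summit within 1 kb (color, log2 scale; grey, no peak) for each of the 53 histone genes in chromosome order (y axis, names colored by class, black lines between clusters) in the 12 lists (x axis). The PDS5A column is filled at 33 genes and the CTCF column at 12, the RAD21 columns at 0 to 5, and 8 neighbouring genes from H3C6 to H2BC10 are empty in every list.

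The position of the PDS5A summit was measured at the 30 genes whose start and strand are in the promoter table. The summit lay from 523 bases before the start to 390 bases after it, with a median of 155.5 bases after it, and within 500 bases at 29 of the 30. It fell inside 21 genes, upstream of 8 and just past the end of 1, H4C12. Because the median gene length was 487 bp, a summit inside a gene lies near its start in most cases. The summits upstream belonged to genes sharing a peak with a divergent neighbour. In 8 H2A and H2B pairs under a common peak, the summit fell inside the H2A gene in 7 and inside the H2B gene in 1, the pair H2AC6 and H2BC4. These pairs are H2AC7 and H2BC7, H2AC8 and H2BC8, H2AC11 and H2BC11, H2AC12 and H2BC12, H2AC13 and H2BC13, H2AC15 and H2BC15, H2AC17 and H2BC17, and that exception. The peaks were 400 to 1900 bp wide and often covered both genes, so a summit is only the highest point. At H2AC7 the annotated H3C4 model begins at the same base and was counted with it. Genes with and without a PDS5A summit had TATAAA in 20 of 30 and 11 of 18 promoters, CCAAT in 24 of 30 and 17 of 18, and the octamer in 13 of 30 and 7 of 18.

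**Figure D3:**
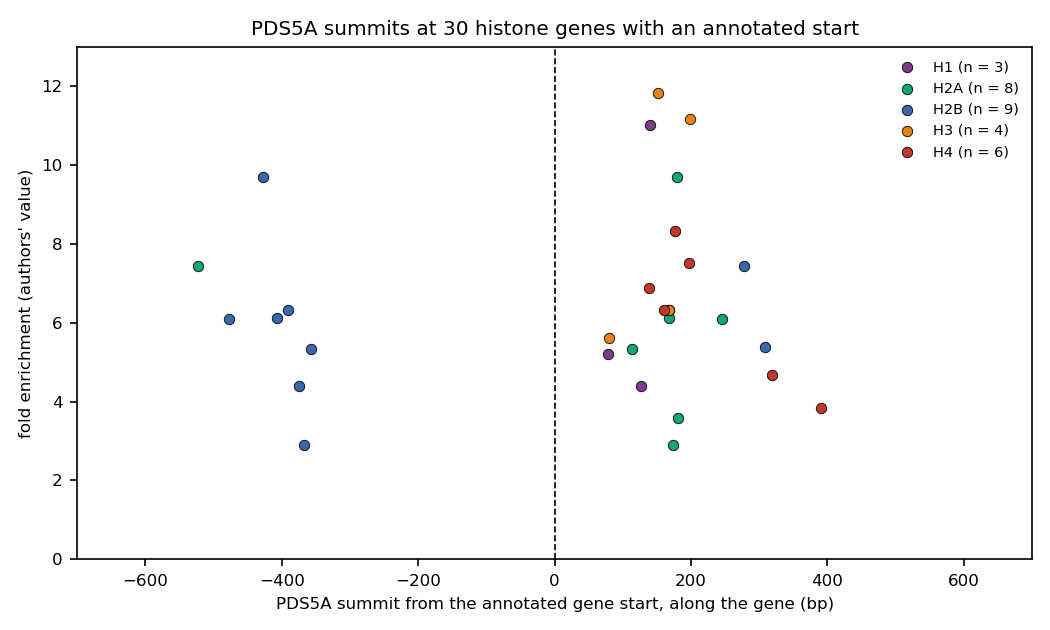
Distance of the PDS5A summit from the annotated gene start along the direction of transcription (x axis, bp; dashed line, the start) and fold of the peak (y axis) for 30 histone genes, colored by class. Most points sit to the right of the start, with a median of 155.5 bp; the group to the left of the start is mostly H2B genes whose peak has its summit in the neighbouring H2A gene.

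Most of these PDS5A peaks had no called cohesin peak. Of the 24 at histone genes, 3 overlapped a RAD21 peak of the same clone and treatment, or 12.5% (4.34 to 31.0). Of the 28 other PDS5A peaks of the window, 25 did, or 89.3% (72.8 to 96.3). Over the whole PDS5A list the share was 72.7%, and among the 17686 PDS5A peaks near any protein-coding gene it was 70.7%. The lowest background pileup was 3.00 in that RAD21 library and 2.76 in PDS5A, and the part of depth in these overlaps was not tested. With any of the 6 RAD21 lists accepted, 4 of the 24 had an overlap, against 26 of the 28. STAG1 overlapped 1 of the 24 and 22 of the 28, and STAG2 0 and 19. CTCF overlapped 9 of the 24, or 37.5% (21.2 to 57.3), and 26 of the 28, or 92.9%. By gene, 27 of the 33 genes with a PDS5A summit had no RAD21 summit in any list, and for 20 of them PDS5A was the only protein called. PDS5A had 1 antibody and 1 library, and whether its signal at these genes needs PDS5A was not tested.

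RAD21 was called at few histone genes in any condition. In clone A2 a RAD21 summit lay within 1 kb of 4 of the 53 genes in DMSO (7.55%, against 54.0% of all protein-coding genes), of 1 at 4 h (35.5% of all) and of 1 at 24 h (38.6% of all). In clone D7 the counts were 4 in DMSO (54.4% of all), 5 at 4 h (56.7% of all) and 0 at 24 h (43.0% of all). Genes of at most 1 kb had a RAD21 summit in 6.68% of cases in clone D7 in DMSO, against 8.33% of the histone genes among them. In all, 6 histone genes had RAD21 in some list and all 6 lie in the first cluster. No gene had it in all 6 lists, and no gene had it in both DMSO lists while lacking it in every dTAGV-1 list. With −log10 q required to be 10 or more, the counts fell to 3, 1 and 1 in clone A2 and to 0, 1 and 0 in clone D7.

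H4C2 carried the strongest RAD21 calls. Its RAD21 folds in clone A2 were 9.33 in DMSO, 5.10 at 4 h and 4.61 at 24 h, from pileups of 26, 37 and 29 over local backgrounds of 1.89, 6.46 and 5.51. In clone D7 it was called at 4 h only, with a fold of 7.14 and a pileup of 39. The pileups of clone A2 at 4 h and 24 h were thus above that in DMSO, and so were the local backgrounds. H4C2 also had the highest CTCF fold of the histone genes, 70.7, in the upper 13.2% of the CTCF list. The CTCF and RAD21 summits lay 421 to 447 bp past the end of the gene, while the PDS5A summit lay inside it, 197 bp after the start.

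H2AC8 and H2BC8 shared a RAD21 peak inside H2AC8. Its fold was 6.33 in clone A2 in DMSO, 4.30 in clone D7 in DMSO and 4.69 in clone D7 at 4 h, and it was not called in the other 3 lists. A CTCF peak of fold 11.1 and a PDS5A peak of fold 6.09 covered the same place.

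H4C8, the last gene of the first cluster, had RAD21 folds of 4.94 in clone A2 in DMSO, 3.44 in clone D7 in DMSO and 3.93 in clone D7 at 4 h. It had no CTCF summit within 1 kb, and its PDS5A fold was 6.87. The only STAG1 and STAG2 summits within 1 kb of any of the 53 genes were here. STAG1 was weak, with a fold of 2.97 from a pileup of 13, and STAG2 strong, with a fold of 16.4 from a pileup of 86. The STAG2 summit lay 998 bp before the start of H4C8, at a neighbouring transfer RNA gene, and that peak did not overlap the RAD21 peaks of the gene.

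The other RAD21 genes were H1-2, with a fold of 4.19 in clone D7 in DMSO only, and H2BC5, with a fold of 4.07 in clone D7 at 4 h only. In clone D7 in DMSO the 3 peaks at histone genes ranked between 84.3% and 93.7% from the top of their list by fold. Their pileups were 22 to 31, against a median of 86 over 35 other RAD21 peaks of the window.

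CTCF summits lay within 1 kb of 12 of the 53 genes (22.6%, against 66.0% of all protein-coding genes, 9.16% of those of at most 1 kb and 41.7% of those no longer than the longest histone gene). All 12 are among the 48 histone genes of at most 1 kb, of which they make up 25.0%. Both sets limited by length include these 12 genes. They were at H1-1, H4C2, H3C2, H3C3, H1-2, H4C3, H4C4, H4C5, H2BC8, H2AC8, H2BC13 and H3C10, so 10 of the 12 lie in the first cluster. Of the 12, 11 also had a PDS5A summit; H1-1 did not. After H4C2 the highest CTCF folds were 16.8 at H4C3, 11.9 at H3C3, 11.1 at H2AC8 and H2BC8 and 10.5 at H4C5. H2BC13 had the lowest, 4.24. All folds but those of H4C2 and H4C3 lay below the median of the CTCF list, 15.6.

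STAG1 was called at 1 of the 53 genes, against 47.7% of all protein-coding genes, and STAG2 at 1, against 31.5%. WAPL was called at 0, against 5.76%, and HA at 0, against 0.471%. For STAG1 and STAG2 the shares among genes of at most 1 kb were of the same order as for the histone genes, within the counting intervals. In all, 34 histone genes had a summit in some list and 19 in none. The 19 were H3C1, H4C1, H2BC3, H1-6, H2BC6, H3C6, H1-3, H4C6, H4C7, H3C7, H2BC9, H3C8, H2BC10, H4C9, H2AC14, H2BC14, H2AC16, H3C11 and H4C13. The longest run of them was 8 neighbours from H3C6 to H2BC10 over 49.2 kb (chr6:26224178-26273412).

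Strong cohesin sites lay both beyond the clusters and between histone genes, each more than 1 kb from any of them. The 3 highest RAD21 peaks of clone D7 in DMSO were called in all 6 RAD21 lists. The first, at chr6:26607167-26608102 with a fold of 46.4, lay 322045 bp beyond H4C8. The second, at chr6:27895207-27896082 with a fold of 45.3, lay 1770 bp beyond H2BC17, the end gene of the third cluster. The third, at chr6:26341400-26342206 with a fold of 43.5, lay 56287 bp beyond H4C8. The sites beyond H2BC17 and 56287 bp beyond H4C8 overlapped peaks in 11 of the 12 lists, HA being the exception. The 3 WAPL peaks of the window had folds of 12.3 at the site 56287 bp beyond H4C8, 8.43 at the site beyond H2BC17 and 5.15 between H1-2 and H4C3, 9648 bp from H1-2. Of the 39 RAD21 peaks of clone D7 in DMSO, 8 lay within the span of the first cluster, 0 in the second and 1 in the third, and 5 of these 9 were called in all 6 RAD21 lists. The 5 had folds of 35.0 at chr6:26065746-26066559, near H1-2, 35.0 at chr6:26097093-26097996, near H4C3, 23.9 at chr6:26064344-26065169, near H1-2, 22.8 at chr6:26175339-26176064, near H2BC5, and 15.1 at chr6:27819625-27820211, near H4C11. Their summits lay 4218 to 9655 bp from the nearest histone gene, while the 3 summits within 1 kb of a histone gene had folds of 3.44 to 4.30.

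**Figure D4:**
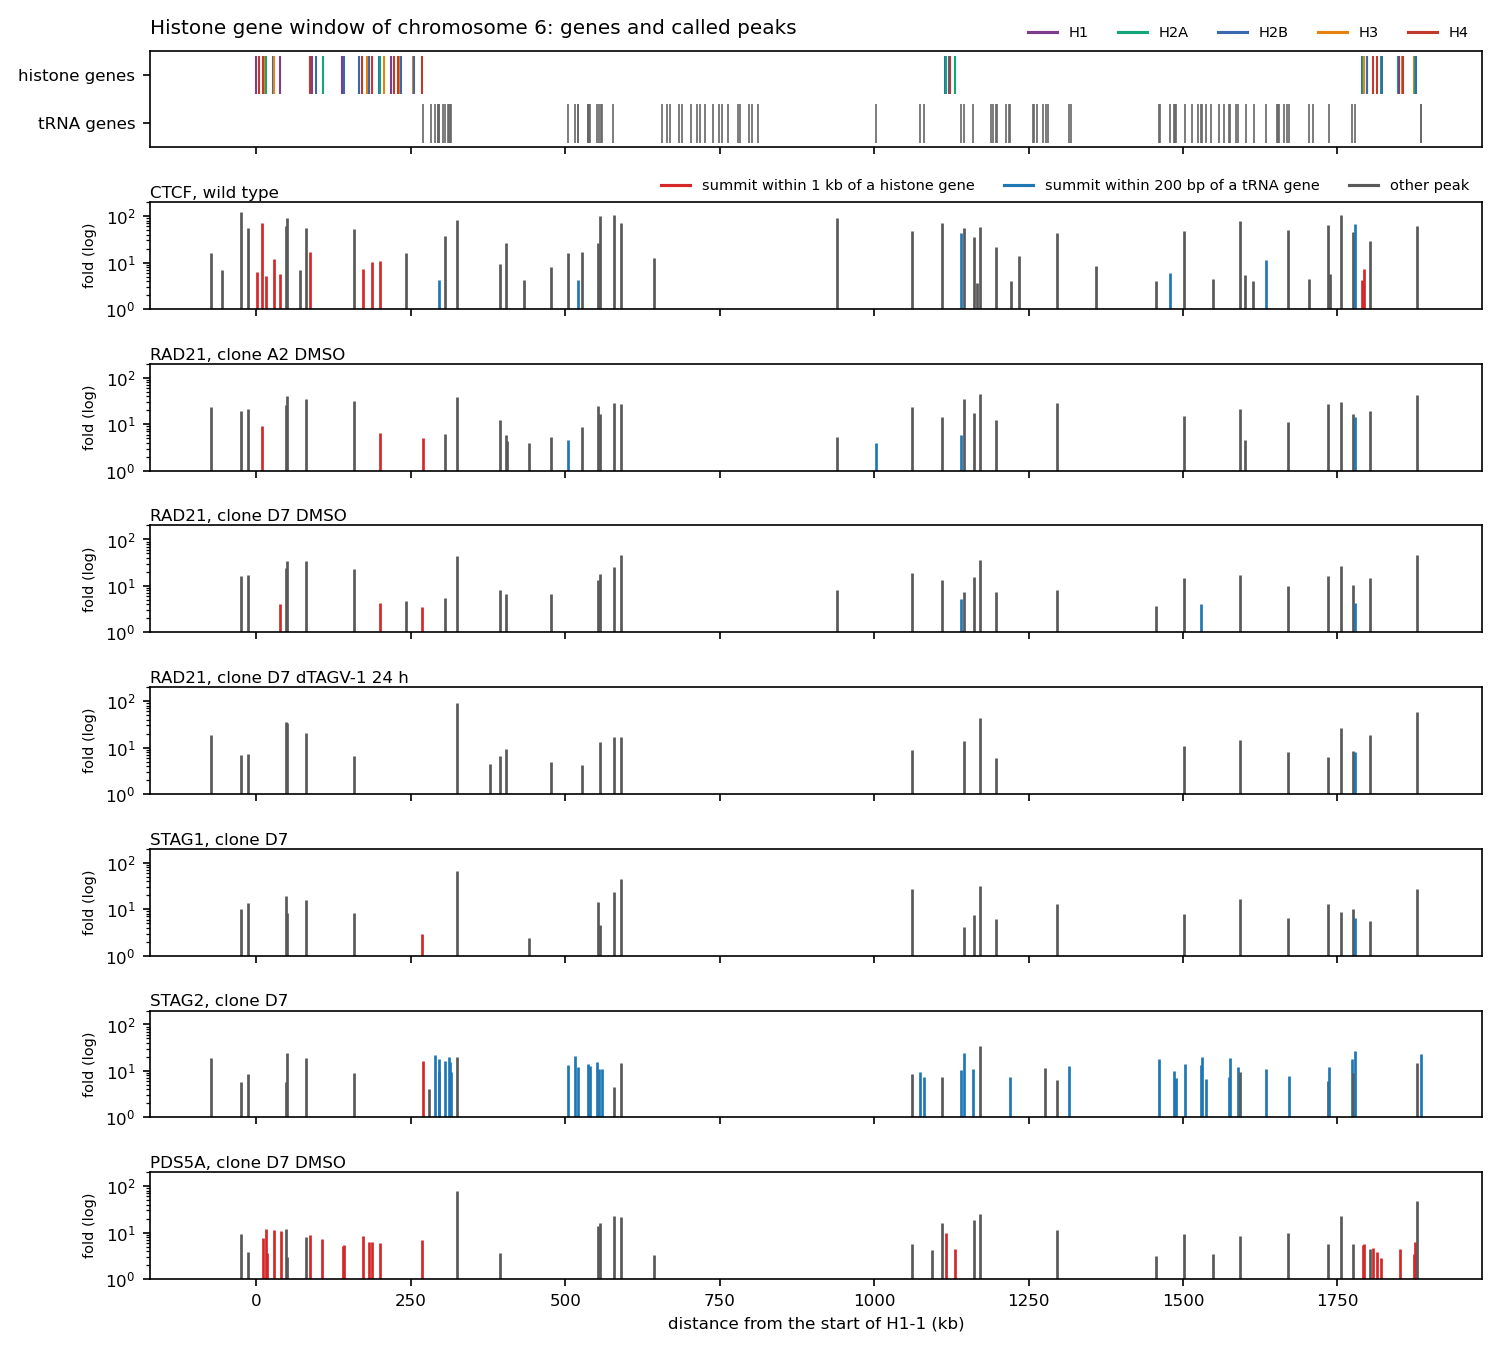
Histone genes (colored by class) and transfer RNA genes of the window, and called peaks of 7 lists as vertical lines at their summits, with distance from the start of H1-1 in kb (x axis) and fold on a log axis (y axis). Red lines are summits within 1 kb of a histone gene and blue lines summits within 200 bp of a transfer RNA gene; the 24 red PDS5A peaks fall on the 3 clusters, the blue STAG2 peaks fall on the transfer RNA genes, and the 1 STAG2 peak that meets both rules, near H4C8, is red.

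Merging overlapping RAD21 peaks of the 6 lists gave 53 sites in the window, of which 44 overlapped CTCF and 5 lay within 1 kb of a histone gene. Of these sites, 23 were called in all 6 lists. All 23 overlapped CTCF and none was within 1 kb of a histone gene. Of 35 sites in both DMSO lists, 24 were also in both 24 h lists and 6 in neither. Of those 6, 2 were the sites at H4C8 and at H2AC8 with H2BC8. The median distance from the middle of a histone gene to the nearest RAD21 summit was taken for each list. In clone A2 it was 11.5 kb in DMSO, 15.3 kb after 4 h of dTAGV-1 and 19.2 kb after 24 h. The same distances in clone D7 were 12.03, 11.5 and 21.3 kb. The lists differed in length, and the same distance for other genes is not given here.

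**Figure D5:**
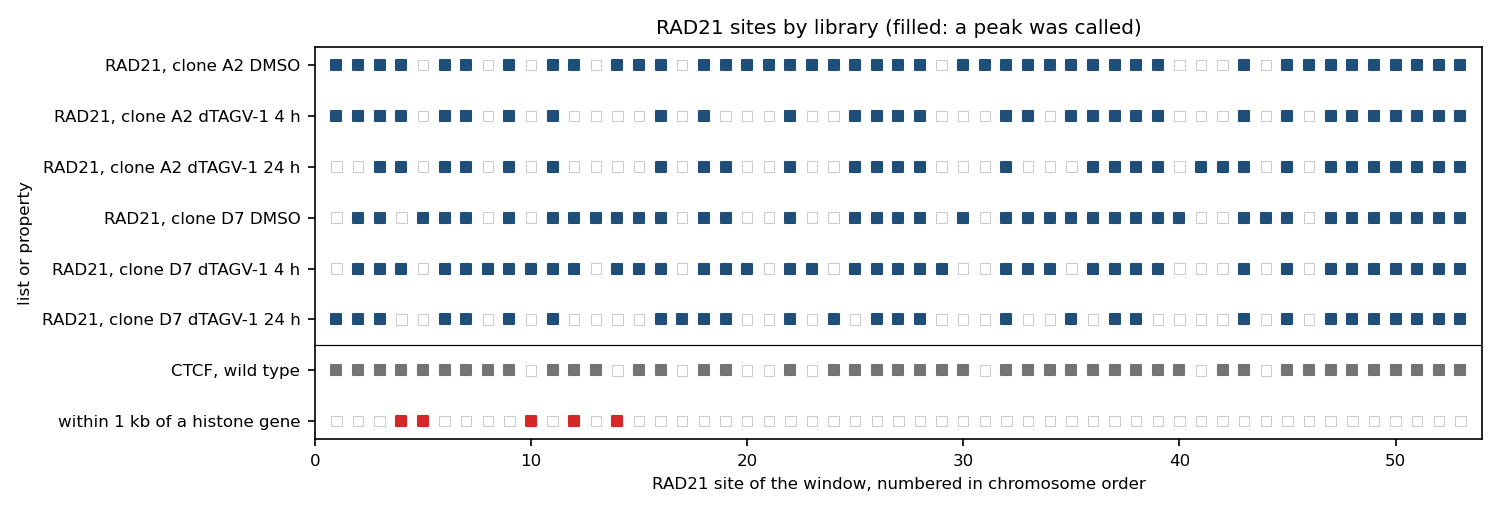
The 53 RAD21 sites of the window in chromosome order (x axis) by list or property (y axis); a filled square marks a called peak, an overlap with wild-type CTCF (grey) or a site within 1 kb of a histone gene (red). The 23 columns filled in all 6 RAD21 rows are filled for CTCF, and the 5 red sites each have 1 to 4 filled RAD21 rows.

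After dTAGV-1 the shares of RAD21 peaks kept over the whole genome lay inside the counting intervals of the window shares, in both clones and at both times. In clone A2 the window held 43, 31 and 30 RAD21 peaks in DMSO, at 4 h and at 24 h, ratios of 0.721 and 0.698 to DMSO, against 0.649 and 0.720 over the genome. In clone D7 they numbered 39, 39 and 29, ratios of 1.00 and 0.744, against 1.04 and 0.802. Of the 43 peaks of clone A2 in DMSO, 72.1% (57.3 to 83.3) were overlapped at 4 h and 65.1% (50.2 to 77.6) at 24 h, against 62.2% and 64.0% of the whole list. Of the 39 of clone D7, 84.6% (70.3 to 92.8) were overlapped at 4 h and 66.7% (51.0 to 79.4) at 24 h, against 80.0% and 68.8%. Between the clones in DMSO, 81.4% of the clone A2 peaks lay in the clone D7 list (80.5% over the genome) and 89.7% the other way (84.4%). The 4 h libraries were deeper than their DMSO libraries in both clones.

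DMSO peaks of the window without an overlap in the treated list numbered 12 of 43 at 4 h and 15 of 43 at 24 h in clone A2, and 6 and 13 of 39 in clone D7. Treated peaks that overlapped no DMSO peak of their clone numbered 0 of 31 and 2 of 30 in clone A2 (3.64% and 10.8% over the genome) and 6 of 39 and 3 of 29 in clone D7 (22.7% and 13.5% over the genome). Of the 53 merged sites, 8 were in DMSO lists only and 6 in dTAGV-1 lists only. The highest of these 11 treated peaks was at chr6:25942432-25943097 in clone D7 at 24 h, with a fold of 18.5, 74308 bp from H1-1; clone A2 had a peak there in DMSO. The next were the peak at H4C2 in clone D7 at 4 h, given above, and one at chr6:26520538-26521235 in clone D7 at 4 h with a fold of 6.22. A single clone D7 peak that was also in the clone A2 DMSO list had no overlap in any dTAGV-1 list, at chr6:26956607-26957159 with a fold of 8.25, 175317 bp from H2BC11; over the genome 5.35% of clone D7 peaks were of this kind.

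Most RAD21 peaks of the window overlapped CTCF, as did those of the whole lists. The shares in DMSO, after 4 h and after 24 h were 88.4%, 100% and 96.7% for clone A2, then 94.9%, 89.7% and 96.6% for clone D7. Over the whole lists they were 85.9%, 97.9% and 90.7%, then 83.1%, 78.2% and 90.7%. STAG1 stood at 92.9%, against 87.7% over its whole list. PDS5A stood at 67.3% (53.8 to 78.5), against 74.9% over its list. STAG2 stood apart at 49.2% (36.8 to 61.6), against 85.4% (85.0 to 85.9) over its list. The window held 59 STAG2 peaks, 0.262% of the list, against 0.104% of the peaks of STAG1 and 0.180% of those of PDS5A.

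The window is also rich in transfer RNA genes, with 100 of the 443 annotated. This comparison was chosen after the values were seen. Of the 59 STAG2 peaks, 39 had the summit within 200 bp of a transfer RNA gene, and 11 of these overlapped CTCF. Counted by gene, 39 of the 100 had such a STAG2 summit, close to the 34.5% of all 443. RAD21 in clone D7 in DMSO had 3 such peaks, STAG1 1, CTCF 6 and PDS5A 0. Within 1 kb, STAG2 had 40 window peaks at transfer RNA genes and 1 at a histone gene, while PDS5A had 7 and 24.

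Other genes of histone supply were counted in the same way. Of 15 other replication-dependent histone genes, mostly on chromosome 1, 7 had a PDS5A summit, 4 a RAD21 summit in clone D7 in DMSO, 6 CTCF and 0 STAG2. Those with PDS5A included H2BC18, H2AC21, H2AC25 and H2BC26, which also had RAD21. Of 12 replication-independent histone genes, such as H2AZ1, H3-3B and H1-10, 8 had PDS5A, 5 RAD21 and 8 CTCF. Of 19 genes for histone locus body, transcription and mRNA 3-prime end factors, 10 had PDS5A, 10 RAD21 and 15 CTCF. NPAT, the scaffold of the histone locus body, had all 3, as did LSM11, a subunit of the U7 particle that cleaves histone pre-mRNA. Of 8 histone chaperone genes, 4 had PDS5A, 3 RAD21 and 7 CTCF. Among the 19 other protein-coding genes of the window, 7 had PDS5A, 5 RAD21 and 12 CTCF. These genes differ in length from the histone genes of chromosome 6, so their shares are given as counts only.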

How the data were processed

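ChIP-seq peak lists of 12 immunoprecipitations, 1 library each, were analysed; 10 input samples had no list and were not used. Each deposited list gives a score per peak as the authors made it, the enrichment of the summit over its surroundings as a fold ratio deposited by the authors, and a −log10 p and a −log10 q as deposited by the authors. BWA, Picard, SAMtools, bedtools, deepTools and MACS2 and the builds hg38 and mm10 are named, without roles, per the submitters' processing notes. Peaks were called per library, at 0.001 for CTCF and 0.01 for the others per the peak names in the files, so CTCF is cut more strictly. CTCF libraries were made with another kit and HA chromatin had an added crosslinker, per the labels' protocols.

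A gene was counted when a summit lay within 1 kb of it (RefSeq GRCh38.p14, no strand); peaks overlapped at 1 bp or more. Pileup and background were solved from fold and p. For this, p was taken as a Poisson tail and the fold as the quotient of both values plus 1. This worked for 100% of sampled peaks in 11 lists. Window peaks with the highest −log10 q gave no solution, among them the CTCF peak at H4C2. The counting and the solving of pileups were tested on simulated data. Python 3.11.15, pandas 2.3.3, numpy 2.4.6 and scipy 1.17.1 were used. Shares carry 95% Wilson intervals; with 1 library per group no test was possible. Named genes: the highest fold per list, genes with RAD21 in all 6 lists (0 genes) or in both DMSO lists only (0 genes), genes without summits, and peaks ranked by fold; other named genes were chosen after their values were seen. The members and lists were chosen with earlier results of these data known. Alternatives were other distances (0.5 and 2.5 kb), −log10 q of 10 or more, lists of equal length, summits within 200 bp, the upper 50% of CTCF peaks and other gene backgrounds.

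Near-identical copies limit mapping. Of 48 promoters, 6 shared a run of at least 50 bases with another histone promoter, at most 126. The compared stretches ran from 250 bases before the start to 50 bases after it. Likeness within the genes, where 21 of 30 PDS5A summits fell, was not measured. How reads with several matches were treated is not given in the sources used here.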

Additional observations from a re-analysis of the deposited data

Results flagged for a closer look

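After 4 h of dTAGV-1, clones A2 and D7 went opposite ways in both measures below as deposited, and neither difference was tested, since each clone had 1 library per condition. The number of histone genes with a RAD21 summit within 1 kb changed by -3 in clone A2, from 4 to 1, and by 1 in clone D7, from 4 to 5. With −log10 q required to be 10 or more, clone A2 went from 3 to 1 and clone D7 from 0 to 1, with H4C2 the single gene at 4 h in both. With lists of equal length both clones went from 0 to 1, so clone A2 turned direction and the clones no longer differed in it. The share of window RAD21 peaks overlapping CTCF changed by 11.6 percentage points in clone A2, from 88.4% to 100%, and by -5.13 percentage points in clone D7, from 94.9% to 89.7%. The whole lists moved the same ways, from 85.9% to 97.9% in clone A2 and from 83.1% to 78.2% in clone D7. With −log10 q of 10 or more, clone A2 had window shares of 100% at both times, and clone D7 had 100% in DMSO and 96.8% at 4 h. Background pileup went from 1.87 to 3.16 for clone A2 and from 3.00 to 4.05 for clone D7 between DMSO and 4 h, and its part in these differences was not tested.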

How the results depend on the processing

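Of the alternatives, 104 values stayed within the counting interval or within 1.5 times the count and 43 moved. The cause was not tested. A change of sign was looked for only in the differences between histone genes and other genes, and 0 of those changed sign. Directions of change between conditions were not scored here. Histone genes with a RAD21 summit, clone A2 in DMSO, numbered 2 within 0.5 kb and 0 in lists of equal length; clone A2 at 4 h and 24 h each had 3 within 2.5 kb. Clone D7 in DMSO had 0 with −log10 q of 10 or more and 0 at equal length; clone D7 at 4 h had 8 within 2.5 kb, 1 at that q and 1 at equal length; clone D7 at 24 h had 2 within 2.5 kb. STAG1 had 3 within 2.5 kb and 0 at that q, STAG2 0 within 0.5 kb and 3 within 2.5 kb, and WAPL 1 within 2.5 kb. Window retention in clone A2 at that q was 87.9% (4 h) and 78.8% (24 h); at equal length clone A2 had 100% and 86.2% and clone D7 93.1% and 82.8%. The CTCF share at that q reached 100% for RAD21 of clone A2 in DMSO and at 24 h, clone D7 in DMSO and at 24 h, and STAG1, and 96.8% for clone D7 at 4 h. Against the upper 50% of CTCF peaks it was 82.1% for RAD21 in clone D7 in DMSO and 48.1% for PDS5A, which also had 48.1% with summits within 200 bp. Histone genes minus genes no longer than the longest of them, in percentage points, were -19.1 for CTCF. For RAD21 in DMSO the differences were -21.9 in clone A2 and -23.6 in clone D7. For STAG1, STAG2 and PDS5A they were -23.8, -7.81 and 24.8. Near gene ends, histone genes minus all protein-coding genes were, in the same order, -14.0, -22.0, -24.7, -26.3, -5.32 and 26.03. PDS5A peaks at histone genes overlapping RAD21 of clone D7 in DMSO numbered 0 at that q, an alternative added after seeing the data. No paired analysis was possible because each group had 1 library. Peak lists do not show signal below their threshold, so a gene without a peak may carry signal; depth differed between lists, with the lowest pileup in STAG1 and RAD21 of clone A2 in DMSO.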
